A study of Mus musculus with 6 samples.

Results

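The cadherin superfamily genes of sorted mouse skin cells were compared between Zfp750 knockout and control libraries at day 50. Members were the protein-coding genes of the deposited table whose names mark them as cadherins (Cdh), cadherin-related genes (Cdhr), protocadherins (Pcdh) or Fat1 to Fat4, 85 of 23934 genes. Of these, 49 lie in the clustered protocadherin families (6 alpha, 21 beta and 22 gamma) and 36 do not. Of the 85, 68 passed the filter on low values (3 or more of the 6 libraries at 1 per 1000000 of their total or above) and were tested, and 17 were not. The 3 knockout samples are labelled fl/fl for ZNF750 and -/- for Rosa26, with Lrig1-CreER +/- in 1 sample and Lrig1-CreERT2 +/- in the other two. The 3 control samples carry an Lrig1-driven recombinase too: 2 are wt/fl and Rosa26 -/- (1 with Lrig1-CreER, 1 with Lrig1-CreERT2), and 1 is wt/wt, Rosa26 +/- and Lrig1-CreERT2 +/-. All received 4-hydroxytamoxifen as pups, from day 4 until day 7 or from day 5 until day 8. Lrig1 marks a limited set of skin cells, those of the upper hair follicle among them, and the recombinase acts in those cells and their descendants. The labels describe the sorted cells as expressing tdTomato, while Rosa26, a usual site of that reporter, is labelled -/- in 5 of the 6 samples.

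Cadherins are calcium-dependent adhesion proteins of the cell surface. Classical cadherins join like cells and hold the actin cytoskeleton through catenins at adherens junctions: type I members (E-, P-, N-, R- and M-cadherin) have a conserved adhesion motif that the type II members lack. Clustered protocadherins are expressed from tandem gene arrays and act in cell recognition, best known from neurons, and Fat cadherins bind Dachsous cadherins and act in tissue polarity and growth. In skin, E- and P-cadherin are the keratinocyte cadherins, and cadherin 11 is the main cadherin of dermal fibroblasts.

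Libraries held 15309679 to 20705773 estimated reads, and values are the authors' normalized counts, which are not corrected for gene length. The labels do not tie each library to a mouse of its own, and p-values therefore speak of the spread among these 6 samples, some of which may be technical. Zfp750 was at 4.90, 1.82 and 7.16 normalized counts in knockout S5, S6 and S7 and at 41.9, 3.75 and 314 in control S2, S3 and S4, or 5, 2 and 9 estimated reads against 33, 3 and 373. The groups overlapped through control S3, whose label Zfp750 therefore does not check. The 8 fibroblast markers were all detected in every library, with a summed value of 924757 to 1223950 in knockouts and 2988990 to 8923440 in controls. That sum was mostly the collagen genes Col1a1, Col1a2 and Col3a1, while Dcn, Lum, Dpt and Fbln1 overlapped between the groups. Of the 8 markers, 6 had a negative log2 fold change, while Pdgfra was at 23877 to 29489 normalized counts in knockouts and 10886 to 11482 in controls, and was called higher. The basal keratinocyte transcript Krt5 was at 885 to 8559 in knockouts and 62.5 to 11805 in controls. The summed values of 4 other marker lists did not overlap between the groups, with 1 gene called of 5 tested mast cell markers, 1 of 3 fat cell markers, 2 of 5 sebocyte markers and 0 of 4 melanocyte markers. The 6 mast cell markers summed to 1240 to 3371 in knockouts and 44.5 to 619 in controls, the 5 fat cell markers to 194 to 8336 and 8.90 to 66.2, and the 7 sebocyte markers to 1502 to 5166 and 643 to 1043. The 6 melanocyte markers summed to 2053 to 2384 in knockouts and 1074 to 2000 in controls, almost wholly Mitf. The sums overlapped for the 6 leukocyte markers (869 to 7177 in knockouts and 141 to 1766 in controls), the 7 skeletal muscle markers (452 to 1130 and 956 to 6340), the 5 dermal papilla markers (721 to 1538 and 1446 to 3009), the 7 pericyte and smooth muscle markers (5973 to 8926 and 4497 to 8496) and the 6 suprabasal keratinocyte markers (129 to 426 and 165 to 412). Marker genes called higher by limma were Tpsb2, Cfd, Elovl3, Awat1 and Pdgfra, and those called lower were Hhip, Des and Krt10. Cfd, Elovl3 and Awat1 passed the filter through their knockout libraries only, so their calls carry the same limit as any gene that enters the test by differing. The part of these cell types in the members' differences was not tested. In bulk RNA of this kind, fewer cells of a type and less RNA per cell cannot be told apart.

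Of the 68 tested members, 5 rose and 4 fell in the knockout, by limma at a Benjamini-Hochberg adjusted p under 0.05 over all 15935 tested genes. In that test 7.35% of the members rose and 5.88% fell, against 4.12% and 2.59% of all tested genes (6.71% in either direction). Of the 4 that fell, Cdh18 and Cdh26 entered the test through their control libraries only, so the share that fell is not evidence about the members. Cdh4, Cdh18, Cdh26 and Pcdh20 fell. Cdh11, Pcdhb9, Pcdh7, Pcdhb16 and Cdh13 rose. The median log2 fold change (knockout minus control) was 0.12 over the tested members and 0.01 over all tested genes. Groups did not overlap for 25 tested members, where 28.8% of all tested genes had separated groups. Of these 25, 20 (29.4% of the members) were higher, where 15.7% of all tested genes were, and 5 (7.35%) were lower, where 13.1% were. Clustered protocadherins, neighbouring genes between which reads may be split, made up 13 of the 20 (9 beta and 4 gamma). All 5 lower members lay outside the clusters, so the shares over all members do not describe each class. Rescaling the libraries to a common total raised log2 fold changes by a median of 0.31 and called 13 members, 9 higher and 4 lower (69.2% higher, against 55.6% as deposited).

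**Figure D1:**
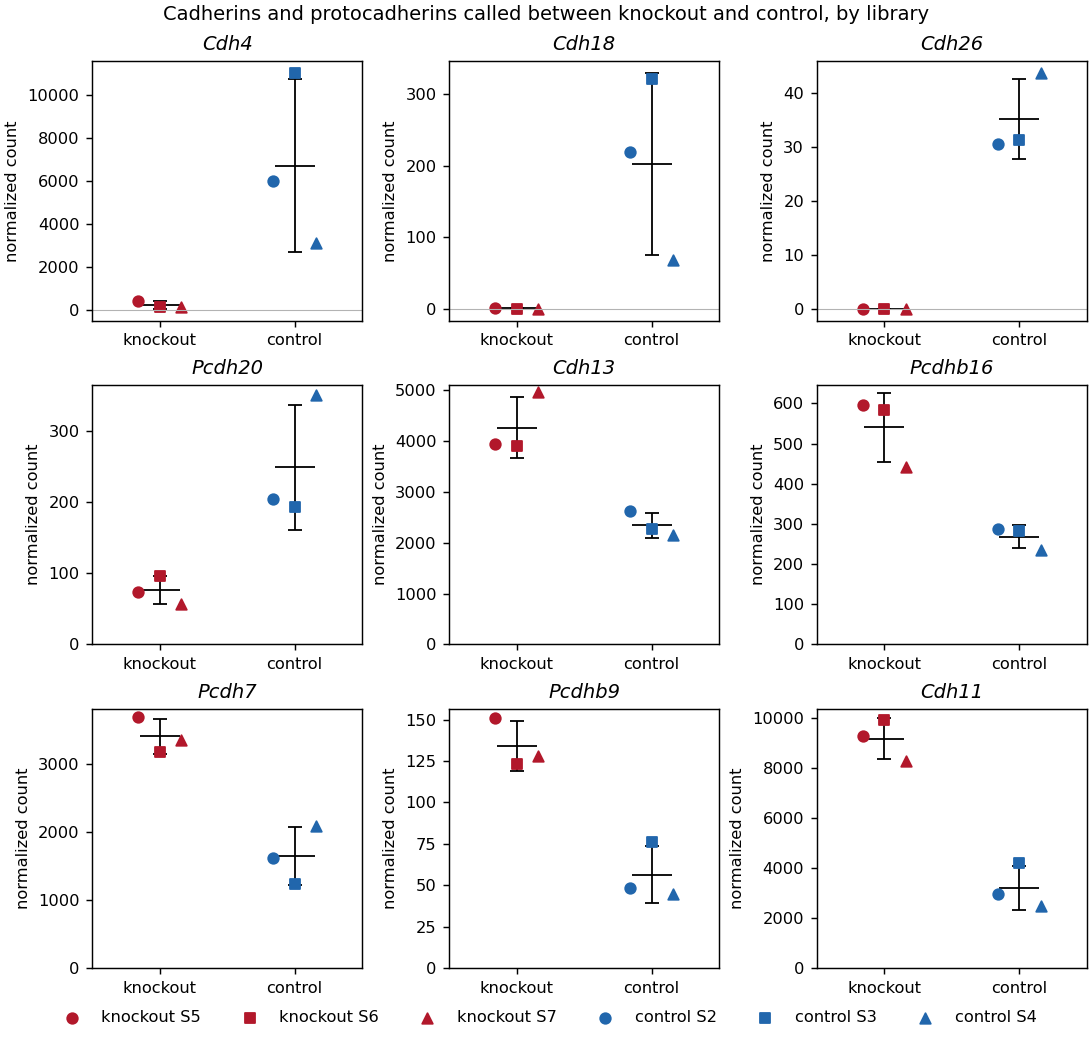
Normalized counts (linear axis, per panel) of the 9 called members in each of the 3 knockout libraries (red, left) and 3 control libraries (blue, right); horizontal bars are means and error bars the SD. The groups are separated in all 9 panels, and Cdh26 is at 0 in all 3 knockout libraries.

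Among type I classical cadherins, Cdh4 fell and the other 4 tested members (Cdh1, Cdh2, Cdh3 and Cdh15) did not pass the test. Cdh4 (ENSMUSG00000000305, chromosome 2, 179084224 to 179541166 on the plus strand in the table's own coordinates) encodes R-cadherin, named for the retina and also expressed in muscle and kidney development. It was at 420, 106 and 117 normalized counts in knockout S5, S6 and S7, against 5998, 11033 and 3085 in control S2, S3 and S4. Every knockout library lay below every control library. In normalized counts the controls differed among themselves by more than the knockouts did, but relative to the group mean they differed by less. The mean was 214 ± 178 in knockouts and 6705 ± 4021 in controls (SD, n = 3 each), a log2 fold change of -5.00 ± 0.60 (SE; limma adjusted p = 0.00543). The call held when any 1 of the 6 libraries was left out, with adjusted p-values of 0.00309 to 0.0320.

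Cdh1 and Cdh3, which encode E- and P-cadherin, overlapped between the groups. Cdh1 was at 185, 224 and 1356 in knockouts and 240.2, 24.98 and 1299 in controls, so knockout S7 and control S4 were high and control S3 low. Cdh3 was at 65.7, 61.1 and 245 in knockouts and 252, 17.5 and 1494 in controls, again lowest in S3 and highest in S4. Their log2 fold changes of 0.83 ± 1.30 and -0.99 ± 1.32 (SE) did not pass the limma test (adjusted p = 0.750 and 0.701). The 7 basal keratinocyte markers were highest in S7 or S4, and 6 of them lowest in S3. Their summed value was 3202 to 23213 in knockouts and 733 to 24662 in controls, with 0 of 7 called. The part of these keratinocyte transcripts in the values of Cdh1 and Cdh3 was not tested. Per 100 of Krt5, Cdh3 was at 5.64, 6.90 and 2.86 in knockouts and 10.1, 28.0 and 12.7 in controls (the values were already known when this ratio was formed). On it the groups were separated, and for 3 against 3 libraries no exact test can go below p = 0.1. This ratio used Krt5 alone among the 7 basal keratinocyte markers. Against Trp63 the order differed: control S3 had less Cdh3 than knockouts S5 and S6 but more Trp63 (289 against 255 and 236). The lower Cdh3 ratio in knockouts therefore depends on the marker chosen. Per 100 of Krt5, Cdh1 was at 15.9, 25.3 and 15.8 in knockouts and 9.59, 40.0 and 11.0 in controls, which overlapped. They overlapped through control S3 alone. In S3, Krt5 was at 62.5 normalized counts, Cdh1 at 24.98 and Cdh3 at 17.5, so both of its ratios rest on few reads.

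Cdh2 and Cdh15 were low. The N-cadherin gene Cdh2 was at 34.6 to 53.3 normalized counts in knockouts and 19.98 to 31.1 in controls, separated but not called (log2 fold change 0.54 ± 0.29 SE, limma adjusted p = 0.312). Cdh15 encodes M-cadherin of muscle satellite cells, and was at 45.6 to 83.4 in knockouts and 47.5 to 213 in controls. The satellite cell transcript Pax7 was at 60.5 to 227 in knockouts and 50.0 to 389 in controls.

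Of the 7 tested type II classical cadherins, Cdh11 rose and Cdh18 fell. Cdh11 (ENSMUSG00000031673, chromosome 8, 103358727 to 103512274 on the minus strand) encodes a mesenchymal cadherin of fibroblasts, bone and synovium. It was at 9297, 9925 and 8295 normalized counts in knockout S5, S6 and S7, against 2981, 4196 and 2472 in control S2, S3 and S4. The lowest knockout library lay well above the highest control library. The mean was 9173 ± 822 in knockouts and 3216 ± 886 in controls (SD, n = 3 each), a log2 fold change of 1.54 ± 0.23 (SE; limma adjusted p = 0.00992). The limma call was lost without knockout S6 (adjusted p = 0.0531) or control S2 (adjusted p = 0.0602), the log2 fold change staying at 1.37 to 1.75 in the fits without 1 library. Among the 8 fibroblast markers, Pdgfra rose as well (1.24 ± 0.21 SE, limma adjusted p = 0.0165), 0 fell by the test, and Dpt was at 11195 to 17246 in knockouts and 12220.5 to 15960 in controls. The fibrillar collagens Col1a1, Col1a2 and Col3a1 were lower in all 3 knockout libraries without passing it (log2 fold changes of -2.67, -2.71 and -1.68).

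Cdh18 (ENSMUSG00000040420, chromosome 15, 22549108 to 23474504 on the plus strand), a type II cadherin best known from brain, was nearly absent from the knockouts. It was at 0.981, 0 and 0 normalized counts in knockout S5, S6 and S7 and at 219, 321 and 68.1 in control S2, S3 and S4. This was 1 estimated read in all 3 knockout libraries together against 510 in the controls, or 0.161% of the control level (exact 95% interval 0.00408% to 0.903%, counting error only). The limma fit gave an adjusted p of 0.00567, and of at most 0.0346 with any 1 library left out. Cdh18 passed the filter through its control libraries only, so a gene this low in the knockouts could enter the test only by differing.

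The other 5 tested type II genes were not called. Cdh6, known as K-cadherin from kidney, was at 180, 134 and 68.4 in knockouts and 314, 1173 and 437 in controls. These groups were separated, but the limma test was narrowly missed (log2 fold change -2.11 ± 0.52 SE, adjusted p = 0.0558; 0.0402 with a common total). Cdh5 encodes VE-cadherin of endothelial junctions and was at 163, 275 and 1006 in knockouts and 179, 156 and 103 in controls (1.28 ± 0.60 SE, limma adjusted p = 0.254). It was highest in knockout S7, as were 7 of the 9 endothelial markers, while Tek was highest in control S4 and Kdr in control S3. Pecam1 was at 184, 603 and 2026 in knockouts and 262, 237 and 95.03 in controls. The 9 endothelial markers summed to 1467 to 6362 in knockouts and 1334 to 2207 in controls, with 0 of 8 tested called. Per 100 of Pecam1, Cdh5 was at 45.6 to 88.3 in knockouts and 65.8 to 108 in controls. Cdh19, known from the Schwann cell lineage, was at 28.4, 27.3 and 61.3 in knockouts and 21.6, 7.49 and 5.89 in controls (1.22 ± 0.43 SE, limma adjusted p = 0.143). The 7 Schwann cell markers summed to 571 to 1485 in knockouts and 709 to 1193 in controls, with 0 of 6 tested called and Foxd3 at 0 in control S2. The part of endothelial or Schwann cell transcripts in these values was not tested. Cdh9 was at 29.4 to 31.4 in knockouts and 20.2 to 26.2 in controls, and Cdh24 at 27.8 to 94.8 and 43.7 to 87.5.

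**Figure D2:**
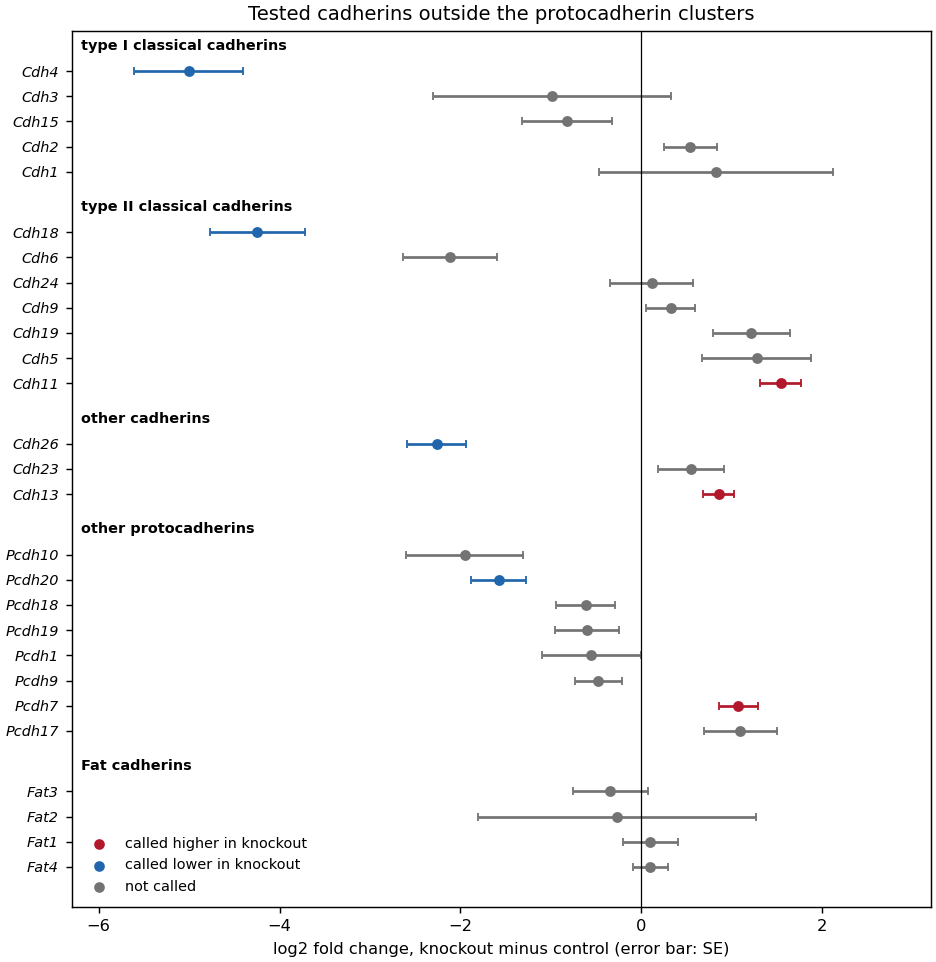
Log2 fold changes (knockout minus control, horizontal axis) of the 27 tested members outside the protocadherin clusters, grouped by class, with error bars of 1 SE from the limma fit; red marks members called higher and blue those called lower in the knockout. Cdh4 at -5.00 and Cdh18 at -4.25 stand furthest from 0, and Cdh1, Cdh3 and Fat2 have the widest errors.

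The 20 Cdh and Cdhr genes were also set against each other per kb of merged exon. Within each library, Cdh4 made up 3.49%, 0.863% and 0.777% of their summed level per kb in knockout S5, S6 and S7, and 47.4%, 61.0% and 25.001% in control S2, S3 and S4. Cdh11 made up 63.0%, 66.0% and 44.9% in the knockouts and 19.2%, 18.9% and 16.3% in the controls. The level of Cdh11 per kb was 18.1, 76.5 and 57.8 times that of Cdh4 in the knockouts and 0.405, 0.31 and 0.653 times in the controls, so the order of these genes per kb was opposite in all 3 libraries of each group. Shares within a library are tied to each other, and in knockout S7 and control S4 the share of Cdh1 was larger (14.3% and 16.7%) than in the other libraries. The exon lengths came from the GENCODE M21 annotation, which need not be the one the authors counted with.

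**Figure D3:**
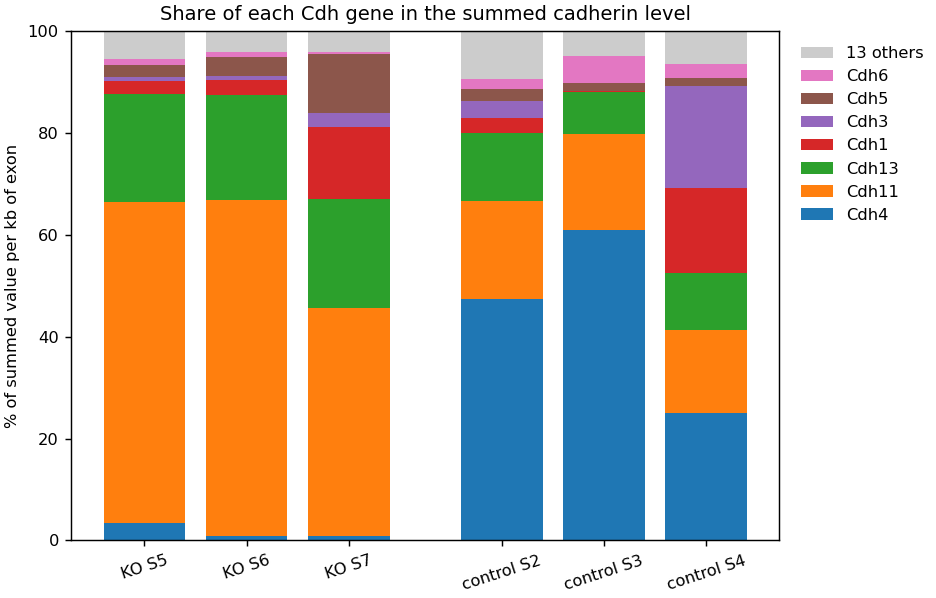
Percent (vertical axis) of the summed value per kb of exon of 20 Cdh and Cdhr genes held by each gene in each library, knockouts on the left and controls on the right. Cdh4 (bottom, blue) holds 0.777% to 3.49% in knockouts and 25.001% to 61.0% in controls, while Cdh11 (orange) holds 44.9% to 66.0% and 16.3% to 19.2%.

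Of the other cadherins, Cdh13 rose and Cdh26 fell, and 4 of 7 were not tested. Cdh13 (ENSMUSG00000031841, chromosome 8, 119010472 to 120051660 on the plus strand) encodes T-cadherin, a membrane-anchored adiponectin receptor that has no cytoplasmic tail. It was at 3943, 3894 and 4963 normalized counts in knockouts and at 2619, 2262 and 2147 in controls, without overlap. The log2 fold change was 0.86 ± 0.17 (SE; limma adjusted p = 0.0289), and the call was lost with any 1 of the 6 libraries left out (adjusted p = 0.0509 to 0.0893). Cdh26 (ENSMUSG00000039155, chromosome 2, 178072324 to 178129159 on the plus strand), studied in human epithelium under allergic inflammation, was at 0 in all 3 knockout libraries and at 30.5, 31.2 and 43.7 in control S2, S3 and S4. Taking 3 reads in each knockout library as the floor, its group mean was at least 13.1-fold lower in the knockouts (limma adjusted p = 0.00901). That call held without any 1 library (adjusted p = 0.0226 to 0.0438). Cdh26 passed the filter through its control libraries only, and its whole control signal was 101 estimated reads. Cdh23, a tip-link cadherin of hair cells, was at 30.2 to 41.0 in knockouts and 9.99 to 30.3 in controls.

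Cdhr1, a photoreceptor cadherin, showed the opposite arrangement but did not pass the filter. It was at 36.3, 12.8 and 121 normalized counts in knockout S5, S6 and S7 and at 0 in all 3 controls. Taking 3 reads in each control library as the floor, its group mean was at least 16.9-fold higher in the knockouts. That bound is not shared by each library, as 152 of its 203 estimated knockout reads were in S7, 37 in S5 and 14 in S6. A limma fit of all 23934 genes gave an adjusted p of 0.0542. Pcdh15, the tip-link partner of Cdh23, also missed the filter, at 13.7, 121 and 101 in knockouts and 1.27, 5.00 and 2.52 in controls (adjusted p = 0.0662 in that fit). For both genes the groups were separated. Cdh16, Cdh17, Cdh22 and Cdhr4 stayed at or under 11.4 in every library.

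Outside the clusters, 8 of 12 protocadherins were tested. Pcdh7 rose, Pcdh20 fell and 6 were not called. Pcdh7 (ENSMUSG00000029108, chromosome 5, 57875309 to 58290572 on the plus strand), a widely expressed adhesion protocadherin, was at 3683, 3174 and 3340 normalized counts in knockouts and at 1619, 1227 and 2084 in controls. The groups were separated, and the log2 fold change was 1.07 ± 0.21 (SE; limma adjusted p = 0.0282). The limma call was lost without S5, S6, S7, S2 or S3 (adjusted p = 0.0544 to 0.111). Pcdh20 (ENSMUSG00000050505, chromosome 14, 88702179 to 88708832 on the minus strand) was at 73.5, 96.6 and 57.3 in knockouts and at 205, 192 and 350 in controls, again separated. Its log2 fold change was -1.58 ± 0.30 (SE; limma adjusted p = 0.0252). The call was lost without S5, S6, S7 or S2 (adjusted p = 0.0559 to 0.0794) and with a common total (adjusted p = 0.0955). Pcdh18 and Pcdh19, both known from embryonic and neural tissue, were among the 3 highest of this class. Pcdh18 was at 2765, 1514 and 1026 in knockouts and 2545, 2549 and 2388 in controls, and was called only without S5 (adjusted p = 0.0490). Pcdh19 was at 1633, 645 and 823 in knockouts and 1249, 1239 and 1962 in controls (adjusted p = 0.359). Pcdh17 was at 41.2, 81.1 and 114 in knockouts and 40.7, 32.5 and 18.5 in controls (adjusted p = 0.161). Pcdh10 was at 58.9 to 192 in knockouts and 170 to 1024 in controls (adjusted p = 0.126). Pcdh12, an endothelial protocadherin, was not tested, at 8.20 to 21.5 and 8.41 to 23.7. Pcdh1 was at 84.3 to 398 in knockouts and 152 to 306 in controls, and Pcdh9 at 86.7 to 136 and 115 to 176. Pcdh8 and Pcdh11x were not tested either, and stayed at or under 32.8 in every library.

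Promoters are shown for 4 of the 9 called members, to set the start-site sequence of genes that fell (Cdh18, Cdh26, Pcdh20) beside one that rose (Pcdh7). They run from 250 bases before to 50 bases after the start on the gene's strand (GRCm38.p6). They lie at chr15:23036213-23036512 (plus strand) for Cdh18, chr2:178430265-178430564 (plus) for Cdh26, chr14:88471347-88471646 (minus) for Pcdh20 and chr5:57717831-57718130 (plus) for Pcdh7. The Cdh18 window falls well inside the span printed for that gene (22549108 to 23474504, in the table's own coordinates), not at its first base. Its start may therefore be an internal one, and which start these cells use was not tested. Capitals mark matches on either strand to CCNNAGGC, the motif described for human ZNF750, and to CACCTG, the E-box bound by Snail and Zeb repressors.
Cdh18: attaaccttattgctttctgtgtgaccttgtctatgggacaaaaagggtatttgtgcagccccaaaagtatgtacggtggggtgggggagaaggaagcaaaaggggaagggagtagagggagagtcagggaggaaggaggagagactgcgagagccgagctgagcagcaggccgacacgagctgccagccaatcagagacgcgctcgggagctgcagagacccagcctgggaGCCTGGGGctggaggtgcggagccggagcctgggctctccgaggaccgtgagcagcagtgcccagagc
Cdh26: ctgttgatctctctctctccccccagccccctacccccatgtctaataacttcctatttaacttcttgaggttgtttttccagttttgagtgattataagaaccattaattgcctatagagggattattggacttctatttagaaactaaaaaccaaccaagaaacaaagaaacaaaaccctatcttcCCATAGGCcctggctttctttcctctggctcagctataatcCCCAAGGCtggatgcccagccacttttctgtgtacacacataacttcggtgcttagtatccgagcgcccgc
Pcdh20: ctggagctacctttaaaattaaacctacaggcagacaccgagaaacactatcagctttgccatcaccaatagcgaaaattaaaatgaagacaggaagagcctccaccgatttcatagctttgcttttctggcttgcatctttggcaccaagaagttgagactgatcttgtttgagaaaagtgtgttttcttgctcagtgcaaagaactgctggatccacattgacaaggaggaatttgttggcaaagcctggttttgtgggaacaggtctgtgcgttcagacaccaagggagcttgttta
Pcdh7: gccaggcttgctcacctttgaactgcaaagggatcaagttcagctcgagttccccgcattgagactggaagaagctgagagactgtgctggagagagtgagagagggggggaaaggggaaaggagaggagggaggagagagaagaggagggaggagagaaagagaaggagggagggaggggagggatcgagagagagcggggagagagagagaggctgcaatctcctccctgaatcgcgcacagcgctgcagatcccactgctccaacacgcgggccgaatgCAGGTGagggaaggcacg
The Cdh26 window held 2 CCNNAGGC matches, starting 62 and 21 bases before the start, and the Cdh18 window held 1, starting 18 bases before it. Pcdh20 held no match to either motif, and Pcdh7 held 1 CACCTG match. No matches of the 2 motifs overlapped. Of 32851 promoter windows of the same length, 24.1% held CCNNAGGC and 20.2% held CACCTG, so these matches are a description only. Cdh4, Cdh11 and Cdh13 had no entry, and promoters of the called Pcdhb genes were not used here.

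The clustered protocadherins lie side by side on chromosome 18. Each beta gene is read as a unit of its own, while alpha genes share their last exons with each other, as gamma genes do, so reads may be split between them. The values of alpha and gamma genes are therefore uncertain one by one. Close similarity of beta genes may also divide reads. The 6 alpha genes were all under the filter, with a summed value of 21.5 to 39.0 in knockouts and 15.8 to 23.7 in controls.

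Of 19 tested beta genes 2 (10.5%) rose and 0 fell, where 4.12% of all tested genes rose. A positive log2 fold change was found for 17 of the 19, and for 8153 of all 15935 tested genes (medians 0.51 and 0.01). Groups were separated for 9 of them, all higher in the knockout, where 15.7% of all tested genes were. Pcdhb16 (ENSMUSG00000047910) was at 597, 583 and 442 normalized counts in knockouts and 287, 281 and 235 in controls, a log2 fold change of 0.98 ± 0.19 (SE; limma adjusted p = 0.0245). Pcdhb9 (ENSMUSG00000051242) was at 151, 123 and 128 in knockouts and 48.3, 76.2 and 44.6 in controls, 1.15 ± 0.26 (SE; adjusted p = 0.0433). Pcdhb5, at 197, 126 and 138 in knockouts and 39.4, 73.7 and 70.6 in controls, narrowly missed the test (1.23 ± 0.30 SE, adjusted p = 0.0558; 0.0319 with a common total). Pcdhb16 lost its call without S5, S6, S2 or S3 (adjusted p = 0.0602 to 0.102). Pcdhb9 lost it without S5, S6, S7, S2 or S4 (adjusted p = 0.0734 to 0.153) and with no filter (adjusted p = 0.0674). The 21 beta genes in the table summed to 3323, 2920 and 2597 in knockout S5, S6 and S7 and to 2147, 2504 and 1653 in control S2, S3 and S4, so every knockout library lay above every control library. The other beta genes with separated groups were Pcdhb3, Pcdhb4, Pcdhb7, Pcdhb15, Pcdhb17 and Pcdhb20, with log2 fold changes of 0.47 to 0.88. The 2 tested beta genes below 0 were Pcdhb11 (log2 fold change -0.30 ± 0.40 SE) and Pcdhb12 (-0.18 ± 0.35). Pcdhb2 and Pcdhb6 were not tested.

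None of the 22 tested gamma genes was called by limma (lowest adjusted p = 0.109). Their median log2 fold change was 0.04, with 13 positive and 9 negative, and 4 (18.2%) had separated groups, all higher in the knockout (Pcdhga2, Pcdhgb1, Pcdhgb7 and Pcdhgc5), near the 15.7% of all tested genes. The highest log2 fold changes were those of Pcdhga2, at 215 to 258 in knockouts and 92.9 to 181 in controls (0.83 ± 0.26 SE, adjusted p = 0.109), and of Pcdhgc5, at 435 to 685 and 282 to 414 (0.66 ± 0.24 SE, adjusted p = 0.160). The lowest was that of Pcdhga12, at 261 to 404 and 332 to 639 (-0.58 ± 0.28 SE, adjusted p = 0.266). Pcdhgc3, a C-type gene at the end of the cluster, had the highest value of all clustered members, at 11682, 7403 and 7917 in knockouts and 8337, 10482 and 7115 in controls (0.05 ± 0.25 SE, adjusted p = 0.935). Pcdhgb6 was at 1358, 1212 and 1356 in knockouts and 935, 1213 and 844 in controls (0.40 ± 0.17 SE, adjusted p = 0.218; 0.0322 with a common total). Pcdhga11 was at 734, 576 and 496 in knockouts and 643, 740 and 531 in controls, and its log2 fold change of -0.09 was positive, at 0.23, with a common total. Summed over the cluster, the gamma genes were at 15068 to 20394 in knockouts and 13349 to 18886 in controls. The 5 regulators of clustered protocadherin expression tested (Ctcf, Rad21, Smchd1, Dnmt3b and Wiz) were not called, with log2 fold changes of -0.22 to 0.25. Rad21, a cohesin subunit, was at 1374 to 1469 in knockouts and 1306 to 1553 in controls, and Smchd1, a silencer of the clusters, at 748 to 813 and 867 to 944.

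**Figure D4:**
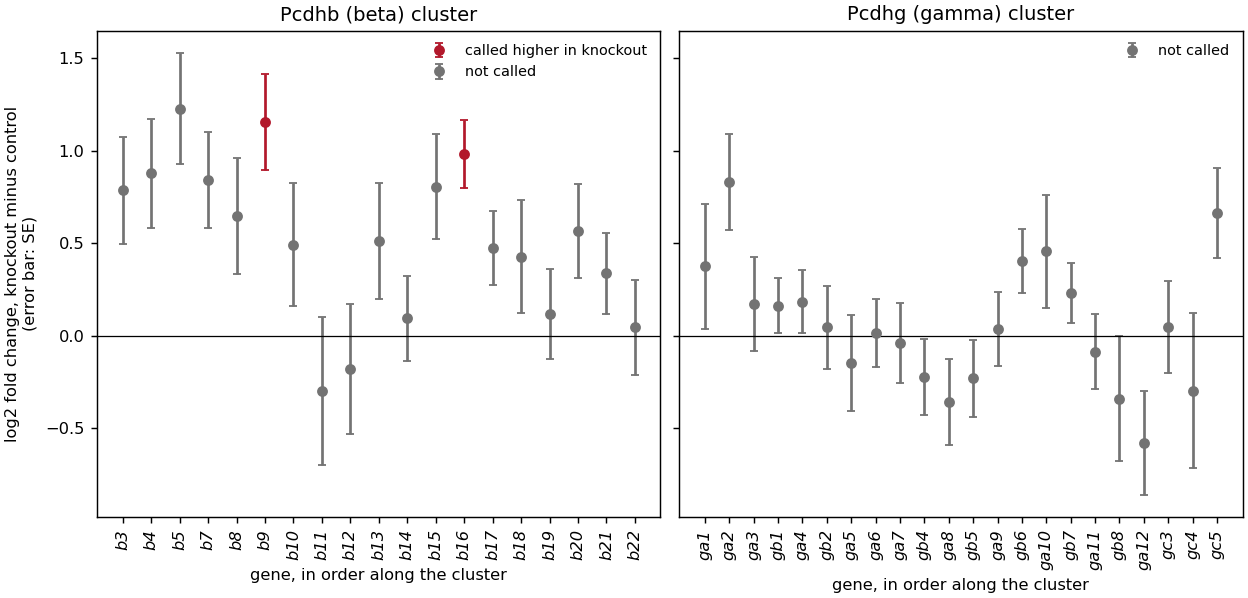
Log2 fold changes (knockout minus control, vertical axis) of the 19 tested beta and 22 tested gamma protocadherins in their order along each cluster, with error bars of 1 SE; red marks genes called higher in the knockout. Of the beta genes 17 lie above 0, and of the gamma genes 13.

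None of the 4 Fat genes was called. Fat1, a giant cadherin that restrains growth signalling, was at 17114, 10401 and 11961 normalized counts in knockouts and 11593, 8983 and 16683 in controls (log2 fold change 0.10 ± 0.30 SE, limma adjusted p = 0.880). Fat4, the receptor for Dachsous 1, was at 4109, 4479 and 4264 in knockouts and 3899, 3279 and 4977 in controls (0.10 ± 0.19 SE, adjusted p = 0.798). The epithelial Fat2 was at 137, 80.2 and 788 in knockouts and 283, 17.5 and 2335 in controls. It was lowest in control S3 and highest in control S4, as Krt5 was, while Krt14 was highest in knockout S7. Per 100 of Krt5, Fat2 was at 11.8, 9.06 and 9.20 in knockouts and 11.3, 28.0 and 19.8 in controls, which overlapped. The part of keratinocyte transcripts in the values of Fat2 was not tested. Fat3 was at 85.7 to 111 and 79.1 to 256.

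**Figure D5:**
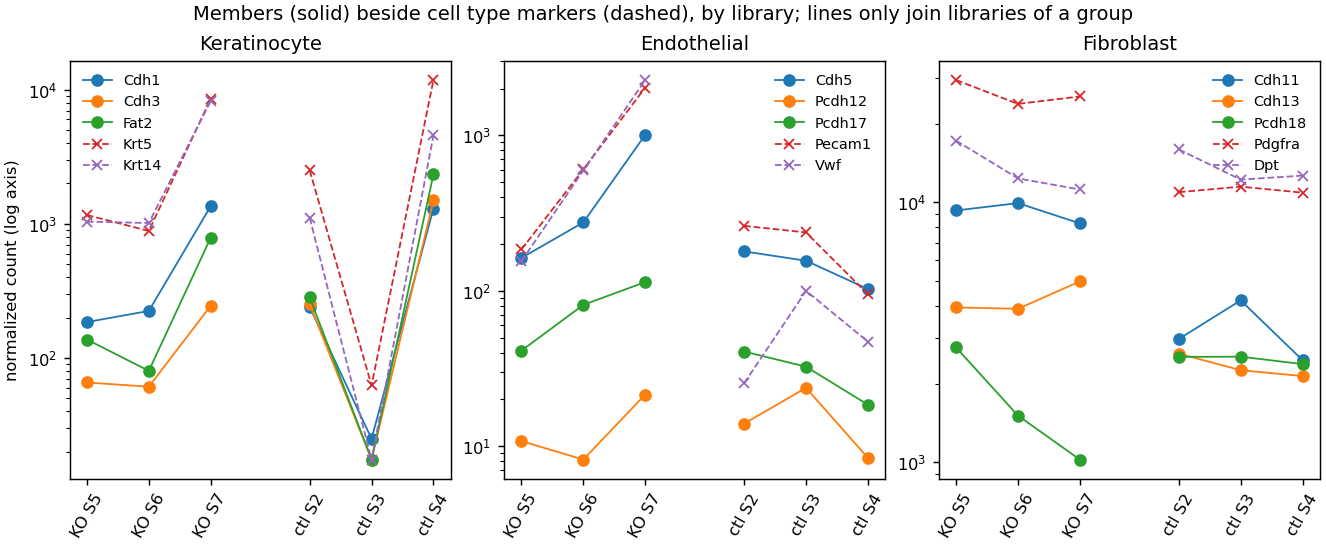
Normalized counts (log axis) of members (solid lines, circles) and cell type markers (dashed lines, crosses) in knockout libraries (left of each panel) and control libraries (right). Cdh1, Cdh3 and Fat2 are lowest in control S3 with Krt5 and Krt14, Cdh5 is highest in knockout S7 with Pecam1 and Vwf, and Cdh11, Cdh13 and Pdgfra are higher in all 3 knockout libraries while Dpt overlaps. The fibrillar collagen genes, not drawn, are lower in all 3 knockout libraries.

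Of 51 tested genes that work with cadherins, 2 rose and 1 fell, with 4.12% and 2.59% of all tested genes as background. Dchs1, which encodes the Dachsous ligand of Fat4, was at 4876, 3927 and 3994 normalized counts in knockouts and 1440, 1997 and 1823 in controls, a log2 fold change of 1.28 ± 0.18 (SE; limma adjusted p = 0.00901). It was called with any 1 library left out (adjusted p at most 0.0449), while Fat4 was not called. Dchs2 was at 707, 1063 and 776 in knockouts and 411, 136 and 347 in controls (1.598 ± 0.39 SE, adjusted p = 0.0567). These were among 8 tested genes of the wider superfamily, of which 1 rose. Clstn1, a calsyntenin, was at 2754 to 3732 in knockouts and 2881 to 4138 in controls.

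Of 11 tested genes of the cadherin-catenin complex, Arvcf fell and 0 rose. Arvcf, a p120-catenin relative that binds the cadherin tail near the membrane, was at 637, 324 and 433 in knockouts and 1172, 1405 and 1173 in controls (-1.46 ± 0.25 SE, limma adjusted p = 0.0170). That call was lost without S6, S7, S2 or S3 (adjusted p = 0.0531 to 0.0691). Ctnnb1, the beta-catenin gene, was at 6574, 6245 and 6310 in knockouts and 5881, 6932 and 6353 in controls, a log2 fold change of 0.00 ± 0.16 (SE). The p120-catenin gene Ctnnd1 was at 3114 to 3910 in knockouts and 3311 to 3981 in controls. Of the 4 nectins, immunoglobulin-type partners at the same junctions, Nectin2 rose (251, 419 and 425 in knockouts against 107, 111 and 178 in controls; 1.40 ± 0.29 SE, adjusted p = 0.0325). It lost its call without S6, S7, S2 or S3 (adjusted p = 0.0931 to 0.129). Nectin1 was at 1131 to 1793 in knockouts and 1429 to 4118 in controls, and Nectin3 at 612 to 747 and 718 to 813.

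None of 7 tested cadherin-repressing transcription factors, 8 planar polarity and Fat signalling genes, or 8 cleavage and endocytosis genes was called. Of the repressors, Snai2 was at 330, 321 and 279 in knockouts and 147, 200 and 188 in controls, separated but not called (0.77 ± 0.19 SE, limma adjusted p = 0.0562). Zeb1 was separated and higher too (0.58 ± 0.18 SE, adjusted p = 0.107). Snai1 had a larger log2 fold change but overlapped (1.00 ± 0.35 SE, adjusted p = 0.143). Snai2, Zeb1 and Snai1 were named after their values were seen. Zeb2 was at 4810 to 7105 in knockouts and 6193 to 12136 in controls, and Twist1 at 1750 to 2544 and 1432 to 3540. The membrane protease gene Mmp14 was at 28940 to 30960 in knockouts and 16946 to 35439 in controls, and Mmp3 at 4290 to 4671 and 1695 to 5285. Among polarity genes, Lix1l was at 3038 to 3731 in knockouts and 1711 to 3015 in controls (0.60 ± 0.23 SE, adjusted p = 0.173; 0.0127 with a common total), and Prickle1 at 1325 to 1593 and 1458 to 2107.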

How the data were processed

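RNA was sequenced from sorted skin cells of 3 knockout and 3 control mouse samples; per the labels' protocols it was column-purified and libraries were made with an NEBNext Ultra II kit. TopHat2 2.1.0 and Partek 9.0.20.0202 appear in the submitters' processing notes with no step attached. Not given in the sources used here are the build, annotation, strand setting and normalization method. The authors deposited 1 table of normalized counts, a signal that behaves like estimated reads over 1 size factor per library (0.787 to 1.26): 78.7% to 81.2% of values up to 1000 reads are whole within 0.05, so no count model was run. Columns show their group but cannot be tied to a numbered sample, so libraries keep the column tags S2 to S7. Of the gene IDs, 97.0% are in GENCODE M21 (GRCm38) but 2.20% of these start at the same base, so gene positions are the table's own, with ends taken as 1 less than the table's stop.

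Groups were compared with limma 3.58.1 in R 4.3.3 on log2(value + 9.15), a pseudocount of 0.5 per 1000000 of the mean library total, with an intensity trend, 2-sided, over 15935 genes; fold changes on this scale understate the change of low genes. The limma step was tested on simulated data in which the libraries of a group shared the same expected values. That test therefore does not give its error rate for these libraries. Fits without 1 library kept the same genes. Alternatives changed the pseudocount, filter, scaling and trend, or added a block. The members and lists were chosen with earlier results of these data known. Named genes were called members, members with separated groups and an absolute log2 fold change of at least 1, the 3 highest of each class, and the called and 2 highest genes of each partner list, and the same for marker lists, whose 2 highest genes are printed only where they stand beside a member. Cdh2, Cdh9, Cdh15, Cdh24, Fat3, Pcdh10, Pcdh12, Pcdhb11, Pcdhb12, Dchs2, Dpt, Vwf, Pax7 and Foxd3 and the remaining clustered genes fall outside the rule and were picked with their values known. So were Col3a1, Dcn, Lum, Fbln1, Trp63, Snai1, Snai2 and Zeb1. Promoters are from RefSeq (GRCm38.p6). Intervals and floors of 3 reads cover counting error only.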

Additional observations from a re-analysis of the deposited data

How the results depend on the processing

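The number of called members was 9, and 8 to 13 under the other pseudocounts, filters, scaling and trend. With 1 library left out it was 3 to 8, and 3 without knockout S6 or control S2. Cdh4, Cdh18 and Cdh26 were called in each fit that tested them. The filter at 5 per 1000000 left Cdh18 and Cdh26 out. Both passed the main filter through their control libraries only, and the fits without 1 library kept the same genes. For Cdh18 and Cdh26, the calls in those fits are therefore no further support. Over all genes 1070 were called, 337 to 1285 with 1 library left out. Of the partner genes 3 were called, 5 with the filter at 5 per 1000000, 8 with a common total, and 1 to 3 with 1 library left out. The cause of these changes was not tested. Among the genes the text names by rule, log2 fold changes that turned positive with a common total were Pcdhga11 (0.23), Ctnnd1 (0.31), Nectin3 (0.17), Clstn1 (0.24), Prickle1 (0.13), Twist1 (0.25) and Smchd1 (0.10), none called either way. Leaving out 1 library turned the sign of 13 of them, all uncalled, whose log2 fold changes ran from -0.11 to 0.33 for Fat1, -0.041 to 0.26 for Fat4, -1.93 to 1.30 for Fat2, -0.16 to 0.19 for Pcdhgc3, -0.24 to 0.040 for Pcdhga11, -0.531 to 2.097 for Cdh1, -2.52 to 0.40 for Cdh3, -0.058 to 0.061 for Ctnnb1, -0.070 to 0.094 for Ctnnd1, -0.22 to 0.039 for Clstn1, -0.41 to 0.24 for Twist1, -0.086 to 0.73 for Mmp3 and -0.048 to 0.076 for Rad21. The column names also carry a UB number, of which 2 are shared by both groups (S6 with S2, S7 with S3). Deviations from the group means correlated at 0.25 and -0.22 across 15935 genes in these pairs, and at 0.41 for S7 with S4, which share no number. With 3 libraries per group these correlations are tied to each other, so they cannot show whether the number pairs the libraries. The number was not used in the main fit. A fit with it as a replicate block, chosen after seeing the data, has 1 residual degree of freedom. Knockout S5 and control S4 each carry a number of their own, so its fold changes rest on S6, S7, S2 and S3 alone. Effects of the block and of losing S5 and S4 cannot be told apart in it. It called 6 members, 5 of them among the 9, with Pcdh18 gained and Cdh13, Pcdh20, Pcdhb9 and Pcdhb16 lost. It also called 5 partner genes and 1527 genes in all. Under that block the sign turned, without a call, for Fat2 (1.596), Pcdhgc3 (-0.29), Cdh3 (0.68), Ctnnb1 (-0.024), Ctnnd1 (0.0018), Mmp3 (-0.11) and Rad21 (-0.0039). Numbered samples of the labels could not be tied to columns, so a block on those was not run. A count model was not run because only part of the values are whole reads. Depth limits Cdh18, Cdh26 and Cdhr1, whose higher group held 510, 101 and 203 estimated reads.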
